A study of Mus musculus with 62 samples.

Results

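The alpha1 subunits of voltage-gated calcium channels were followed by gene name in the deposited count table. All 8 genes looked for were found: Cacna1a, Cacna1b, Cacna1c, Cacna1d, Cacna1e, Cacna1g, Cacna1h and Cacna1i, 8 of 56415 genes, with 112 of the 218795 annotated isoforms. Poly(A) RNA had been sequenced from 62 brain samples of 16 male C57BL/6J mice, aged 8 to 10 weeks, in the cortex (CTX), the dorsal and ventral hippocampus (dHPC, vHPC) and the dorsal and ventral striatum (DS, VS). The samples form 20 groups, with 3 libraries in each group except 4 in dHPC acute ethanol and in DS chronic ethanol. In each region an acute saline group and an acute ethanol group had a single intraperitoneal injection, and a chronic saline group and a chronic ethanol group had daily injections for 10 days. Ethanol was dosed at 2 g/kg as a 20% solution in saline, controls had the same volume of saline, and tissue was taken 4 h after the last injection in every group. The design asks whether 1 or 10 exposures to ethanol change these genes, and whether the change depends on the paradigm. Several regions came from the same mouse, and no mouse gave libraries of more than 1 treatment.

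The total of gene counts per library ran from 8149628 to 71164766, with medians of 51703961 in CTX and 48892266 in dHPC against 13091491 in DS, 14524117 in VS and 14530176 in vHPC. All 8 genes passed the low-count filter in every comparison, and none had a count of 0 outside 1 library. That library, DS chronic saline replicate 2, was empty for chromosomes 7, 8, 9, X, Y and MT and for chromosome 6 past position 22875501. Cacna1a and Cacna1c were therefore at 0 in it, and it was left out, so that DS chronic saline stands on 2 libraries. The CTX and dHPC libraries came from a kit without strand information and the vHPC, DS and VS libraries from a directional kit. All were counted as reverse-stranded, so in CTX and dHPC the read pairs that fell on the other strand were not counted for a gene. Tests stayed within regions, or between regions of the same kit. Marker genes matched the regions: in acute saline libraries the summed level of 9 pallial excitatory neuron markers was 1983 ± 96.9 CPM (counts scaled to library size; SD, n = 3) in CTX and 454 ± 53.2 CPM in DS. The summed level of 10 striatal projection neuron markers was 6566 ± 627 CPM in DS and 358 ± 34.0 CPM in CTX. The 6 dentate granule neuron markers summed to 352 ± 29.7 CPM in dHPC and to 38.4 ± 2.46 CPM in DS.

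The alpha1 subunit forms the pore and carries the voltage sensor of a calcium channel, and it sets the channel's type, while beta, alpha2delta and gamma subunits adjust its trafficking and gating. P/Q-type (Cacna1a) and N-type (Cacna1b) channels open the way to transmitter release at presynaptic terminals, R-type channels (Cacna1e) act at dendrites, spines and terminals, and L-type channels (Cacna1c, Cacna1d) link depolarization to calcium signals that reach the nucleus. T-type channels (Cacna1g, Cacna1h, Cacna1i) open near the resting potential and shape burst firing. Ethanol is known to act on several of these channel types.

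The positions are those of GRCm39, as the count tables give them. Cacna1a (ENSMUSG00000034656) lies on the plus strand at chr8:85065268-85366875 and Cacna1i (ENSMUSG00000022416) on the plus strand at chr15:80171439-80282480. The other 6 are on the minus strand: Cacna1b (ENSMUSG00000004113) at chr2:24493899-24653164, Cacna1c (ENSMUSG00000051331) at chr6:118564201-119173192, Cacna1d (ENSMUSG00000015968) at chr14:29761896-30213410, Cacna1e (ENSMUSG00000004110) at chr1:154266477-154760247, Cacna1g (ENSMUSG00000020866) at chr11:94299217-94364926 and Cacna1h (ENSMUSG00000024112) at chr17:25593259-25652757. Their exon length ran from 9.862 kb (Cacna1i) to 25.216 kb (Cacna1e), and each has between 6 (Cacna1i) and 28 (Cacna1c) annotated isoforms. Exons of Cacna1a share 741 bases with Gm16183 on the other strand, those of Cacna1d 1477 bases with Chdh and 147 with Gm50467, and those of Cacna1h 159 bases with Tpsg1. CTX and dHPC reads carry no strand, so reads in these bases cannot be assigned there: Gm16183 averaged 16.5 CPM in CTX but 0.0111 CPM in vHPC.

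In saline-treated mice the members differed in level within every region. To compare genes, levels were divided by exon length (CPM per kb) and averaged over the acute and chronic saline libraries (mean ± SD, n = 6, in DS n = 5). Exon length covers all annotated exons of a gene, so levels per kb, ranks and type shares depend on the annotation. It is 21.864 kb for Cacna1c and 25.216 kb for Cacna1e. Their most abundant isoforms, of 13162 and 14921 bases, hold 96.7% and 98.7% of the gene's count. For Cacna1i these lengths are 9.862 kb and 9781 bases. Cacna1c and Cacna1e are thus set low against Cacna1i. The P/Q-type gene Cacna1a stood at 19.4 ± 1.01 CPM per kb in CTX, 17.1 ± 1.57 in vHPC, 10.8 ± 0.83 in dHPC, 7.97 ± 0.70 in VS and 7.86 ± 0.65 in DS. The N-type gene Cacna1b stood at 17.4 ± 1.25 CPM per kb in CTX, 15.3 ± 2.60 in vHPC, 11.6 ± 0.60 in VS, 10.9 ± 0.37 in dHPC and 8.81 ± 0.73 in DS. The R-type gene Cacna1e had the highest mean of the 8 genes in dHPC (12.6 ± 1.39 CPM per kb), vHPC (18.6 ± 3.40), DS (11.9 ± 0.58) and VS (12.6 ± 1.73), but was number 5 in CTX (9.25 ± 0.49). Neighbours at the top of these orders lay within their spread, such as Cacna1e and Cacna1i in DS (11.9 ± 0.58 and 11.3 ± 1.67 CPM per kb).

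On this measure, which depends on the annotated exon length, the L-type genes were low in every region. Cacna1c stood at 3.85 to 8.20 CPM per kb and Cacna1d at 2.86 to 3.89. The T-type genes each had their own order of regions, set here across both kits. Cacna1i had 19.3 ± 1.45 CPM per kb in CTX, 11.3 ± 1.67 in DS, 9.80 ± 2.26 in vHPC, 9.74 ± 0.75 in VS and 7.45 ± 1.17 in dHPC. Cacna1h had 11.9 ± 0.90 in dHPC and 11.3 ± 3.31 in vHPC against 3.95 ± 0.52 in CTX, and Cacna1g had 11.5 ± 0.56 in CTX against 2.68 ± 1.04 in DS. Summed over a type, T-type genes made up 39.3% of the alpha1 level per kb in CTX, 39.0% in DS, 36.0% in dHPC, 35.6% in VS and 29.9% in vHPC. R-type Cacna1e made up 10.5% in CTX and between 19.3% and 20.9% in the other 4 regions, and L-type genes between 8.71% and 13.4%.

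**Figure D1:**
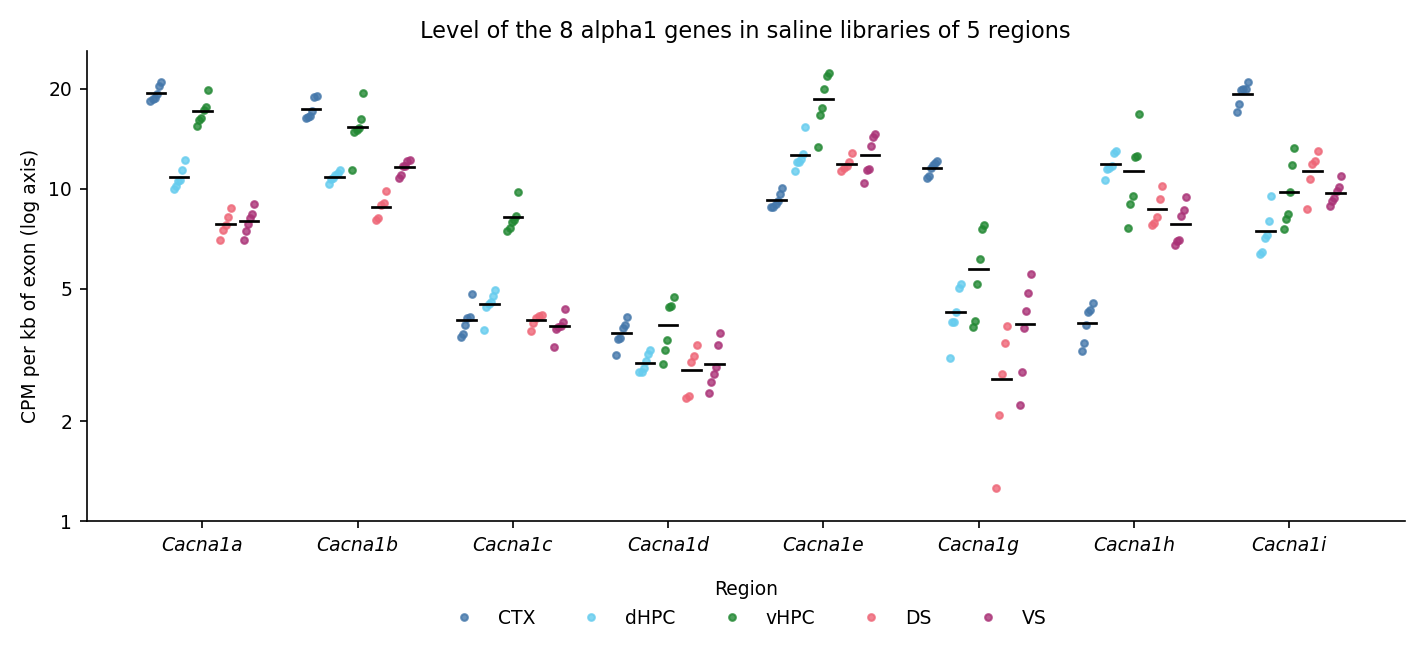
Levels of the 8 alpha1 genes in saline libraries, as CPM per kb of exon on a log axis, with a point for each library and a line for the mean in each of the 5 regions. Cacna1d is at or near the bottom in every region, and Cacna1g and Cacna1i are highest in CTX, where Cacna1h is lowest.

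Ordered by mean CPM across regions, some steps were clear and others lay within the spread. For Cacna1g, all CTX libraries (mean 117 CPM) were above all vHPC libraries (58.3 CPM, 2.00 times lower), while vHPC, dHPC, VS and DS overlapped their neighbours in that order. Cacna1h had its lowest libraries in CTX (mean 42.9 CPM), all below those of VS (85.4 CPM), the next region up. All vHPC libraries exceeded all dHPC libraries for Cacna1c (means 179 and 98.2 CPM), and all CTX libraries exceeded all DS libraries for Cacna1i (190 and 111 CPM). These orders set libraries of different kits side by side. For Cacna1d, no neighbouring regions were separated.

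Within a kit, region differences were tested with edgeR's quasi-likelihood F test on all genes, with Benjamini-Hochberg adjustment and a threshold of FDR 0.1. CTX and dHPC differed for 8 of 8 members, where 55.3% of all genes tested passed. On the log2 scale, CTX was higher than dHPC by 1.42 ± 0.10 (SE) for Cacna1g, 1.35 ± 0.09 for Cacna1i, 0.82 ± 0.05 for Cacna1a, 0.65 ± 0.05 for Cacna1b and 0.27 ± 0.06 for Cacna1d. It was lower for Cacna1h (-1.61 ± 0.08), Cacna1e (-0.47 ± 0.06) and Cacna1c (-0.18 ± 0.08, edgeR FDR = 0.0604). Between vHPC and DS, 6 of 8 members passed (41.6% of genes tested), all higher in vHPC. These were Cacna1g (1.11 ± 0.25), Cacna1a (1.08 ± 0.07), Cacna1c (0.99 ± 0.07), Cacna1b (0.76 ± 0.11), Cacna1e (0.58 ± 0.10) and Cacna1d (0.37 ± 0.08).

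Between vHPC and VS, 7 of 8 members passed (39.1% of genes tested), all higher in vHPC and led by Cacna1a (1.08 ± 0.07) and Cacna1c (1.06 ± 0.08). With the mouse as a block, Cacna1d no longer passed in this comparison (edgeR FDR = 0.104, from 0.0316). Cacna1i did not pass against DS (-0.20 ± 0.13) or VS (-0.02 ± 0.12). Between DS and VS, 1 of 8 members passed (9.88% of genes tested): N-type Cacna1b was lower in DS by -0.39 ± 0.06 (edgeR FDR = 0.00422).

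The genes whose levels most resembled each member were sought over the 20 group means, as Pearson correlations of log2 CPM. These points share regions and kits, so the values are descriptions. Among the closest genes were Eif4g3 (0.978) and Bsn (0.977) for Cacna1a, Lrp1 (0.971) and Mtor (0.968) for Cacna1b, Thrap3 (0.963) and Kit (0.960) for Cacna1c, and Baz2a (0.937) and Cramp1 (0.918) for Cacna1d. They were Nos1 (0.947) and Abl2 (0.946) for Cacna1e, Sh2d3c (0.981) and 6430548M08Rik (0.975) for Cacna1g, Trim35 (0.978) and Ippk (0.975) for Cacna1h, and Ralgapb (0.954) and Srpk2 (0.953) for Cacna1i. Over deviations from the region mean in 61 libraries, the closest genes were Bsn for Cacna1a (0.797), Prrc2b for Cacna1b (0.835), Abl2 for Cacna1c (0.720), Tnip2 for Cacna1d (0.734), Lrrc7 for Cacna1e (0.827), Sez6l for Cacna1g (0.773), Ryr1 for Cacna1h (0.771) and Lmtk2 for Cacna1i (0.762). Among the members themselves, Cacna1c and Cacna1e went together (0.873 over group means, 0.669 over deviations), as did Cacna1a and Cacna1g over group means (0.883) but hardly over deviations (0.127). Cacna1h and Cacna1i went opposite ways over group means (-0.819), with a value of -0.00906 over deviations.

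Acute ethanol exposure in the DS was the only one of the 10 ethanol comparisons in which edgeR called any alpha1 gene. R-type Cacna1e, L-type Cacna1c and T-type Cacna1h rose 1.19- to 1.22-fold, and T-type Cacna1g fell. Thus 4 of 8 members passed, where 5.15% of all genes tested did (2.05% higher and 3.1% lower), and DESeq2 called the same 4 (8.14% of genes tested). For DESeq2, shares of genes or isoforms are throughout of those to which it gave an adjusted p, fewer than edgeR tested. Here these were 16123 genes against 20495. None of the 4 passed when edgeR was fitted to all 4 DS groups at once. In the other 9 comparisons edgeR called 0 of 8 members, and few genes of any kind: 1.99% of genes tested in CTX acute, 0.042% in dHPC acute, 0.0555% in vHPC chronic, 0.0399% in VS acute and 0% in the other 5. The interaction of paradigm and treatment called 0 of 8 members in each of the 5 regions in edgeR, and 0% of genes tested. At an unadjusted p below 0.05, 7 of 8 members were reached in DS acute, against 15.5% of genes tested. For the interaction there were 3 of 8 in CTX (8.19% of genes tested), 5 of 8 in vHPC (11.5%) and 0 of 8 in dHPC, DS and VS, where 4.48%, 4.16% and 4.62% of genes tested had such a p.

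In DS acute saline libraries Cacna1g stood at 39.1, 21.1 and 28.1 CPM, and in acute ethanol libraries at 16.0, 16.7 and 17.8 CPM. All 3 ethanol libraries lay below the lowest saline library, the ethanol libraries were close together and the saline libraries spread widely. The log2 fold change was -0.82 ± 0.18 (SE; edgeR FDR = 0.0225), that is 0.565 of the saline level, with a 95% interval from -1.21 to -0.44. These values rest on 199 to 791 counts per library in ethanol and 292 to 395 in saline. Without acute saline replicate 2, its highest saline library, the log2 fold change was -0.57 (edgeR FDR = 0.0696), and with any other library left out the gene also passed.

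Cacna1e, whose R-type current is prominent in neurons of the striatum and hippocampus, stood at 292, 304 and 323 CPM in acute saline and at 363, 369 and 394 CPM in acute ethanol. The groups did not overlap, and the gap between them was wider than the spread within either group. It rose by 0.26 ± 0.06 on the log2 scale (1.20-fold, edgeR FDR = 0.0351). The call was lost without acute saline replicate 2 (edgeR FDR = 0.107) or acute ethanol replicate 5 (edgeR FDR = 0.165). Acute ethanol replicate 5 was by far the deepest DS library, with 46564992 gene counts. The other acute DS libraries had between 9689502 and 15342254.

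Cacna1c, the main L-type pore of brain and heart, had 89.5, 90.9 and 86.3 CPM in acute saline and 112, 102 and 111 CPM in acute ethanol, again with no overlap. It rose by 0.25 ± 0.07 on the log2 scale (1.19-fold, edgeR FDR = 0.0679). Cacna1h had 102, 89.5 and 85.9 CPM in saline and 114, 109 and 122 CPM in ethanol, with every ethanol library above every saline library. It rose by 0.29 ± 0.08 (1.22-fold, edgeR FDR = 0.0717). Both calls were close to the threshold: Cacna1c stayed called in 2 of the 6 fits that left out a library and Cacna1h in 1 of 6. With edgeR fitted to all 4 DS groups at once, none of the 4 genes passed (FDR from 0.223 for Cacna1e to 0.389 for Cacna1c). With each library's trend with exon length removed, Cacna1g (FDR = 0.0143) and Cacna1e (FDR = 0.0675) passed in edgeR, but Cacna1c (0.133) and Cacna1h (0.118) did not.

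The remaining members did not pass in the DS after acute exposure. Cacna1b had 88.8, 97.9 and 80.2 CPM in saline and 103, 105 and 112 CPM in ethanol (0.23 ± 0.08 on the log2 scale, edgeR FDR = 0.173). Cacna1i had 117, 128 and 120 CPM in saline and 133, 142 and 143 CPM in ethanol (0.16 ± 0.07, edgeR FDR = 0.253). In both genes the ethanol libraries lay above all saline libraries. Cacna1a overlapped between the groups (-0.21 ± 0.08, edgeR FDR = 0.201), as did Cacna1d (0.07 ± 0.11, edgeR FDR = 0.833). In all, 5 members were higher and 1 lower without overlap, where 13.2% of genes tested were higher and 8.75% lower in this way. The median log2 fold change of the 8 members was 0.20, against 0.00 over all genes tested.

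**Figure D2:**
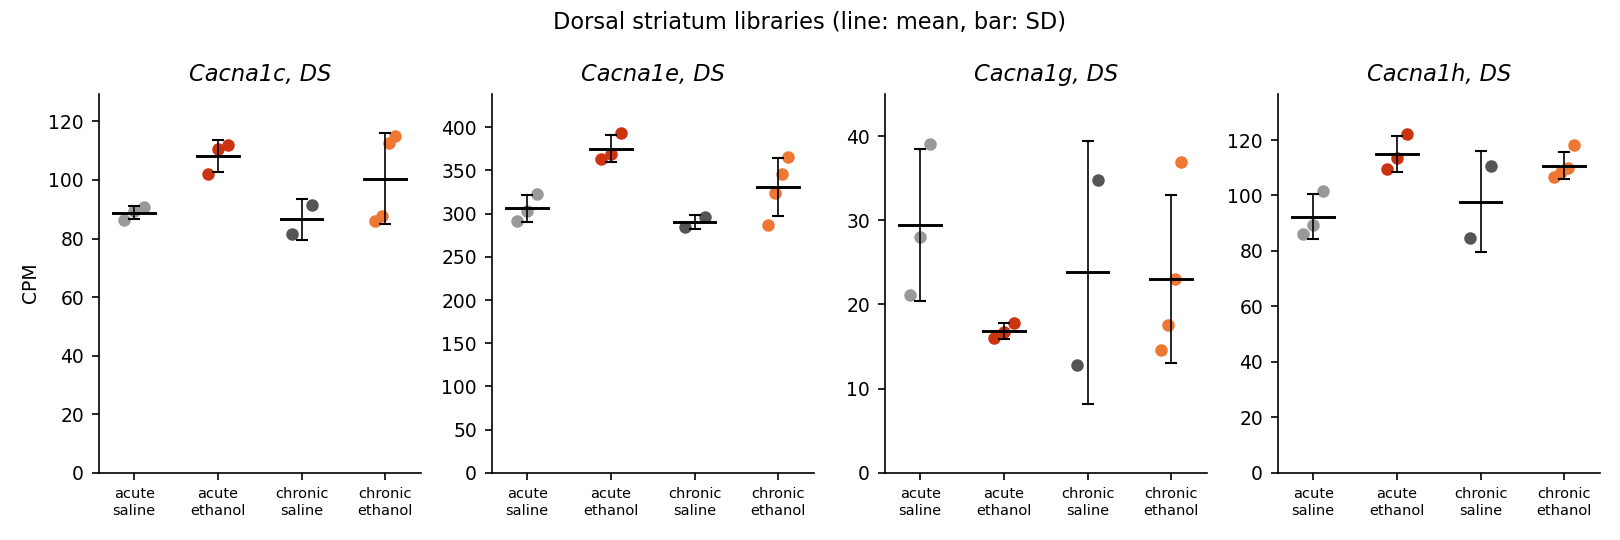
Levels of Cacna1c, Cacna1e, Cacna1g and Cacna1h in each DS library, in CPM from 0, for acute saline, acute ethanol, chronic saline (2 libraries) and chronic ethanol (4 libraries), with a line for each group mean and a bar of 1 SD either way. In the acute groups Cacna1c, Cacna1e and Cacna1h are higher and Cacna1g lower in all ethanol libraries, while the chronic libraries of Cacna1g overlap.

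Markers of other cell types moved in the same DS comparison. Of 9 pallial excitatory neuron markers, 8 fell (edgeR FDR 0.1), with a median log2 fold change of -3.20. Their summed level was 417, 431 and 515 CPM in acute saline and 47.3, 118 and 37.5 CPM in acute ethanol. The most abundant, Slc17a7, a vesicular glutamate transporter of cortical neurons, averaged 312 CPM in saline and 35.9 CPM in ethanol, and 1 of the 9 markers was at 0 in acute ethanol replicate 3. Of 10 striatal projection neuron markers, 8 rose (median 0.30), from a sum of 5961, 7213 and 6526 CPM to 8402, 8058 and 8206 CPM. The part of these differences in tissue make-up in the alpha1 results was not tested. In bulk samples, fewer cells of a type and less RNA per cell cannot be told apart.

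The other marker lists moved less in DS acute ethanol. The GABAergic interneuron list had 1 of 7 higher and 3 lower, the general neuron list 2 of 5 lower, the choroid plexus list 2 of 8 higher, the dentate granule neuron list 1 of 5 lower and the astrocyte list 1 of 6 lower. The summed GABAergic level rose without overlap, from 1077, 1076 and 1049 to 1236, 1182 and 1238 CPM. The general neuron sum fell without overlap, from 2646, 3069 and 3038 to 2547, 2531 and 2569 CPM. No marker of the thalamic neuron, oligodendrocyte, microglia or endothelial lists passed in edgeR. Thalamic neuron markers summed to 132, 74.7 and 85.2 CPM in acute saline and to 85.9, 79.1 and 99.0 CPM in acute ethanol. The highest of these libraries, acute saline replicate 2, was also the highest for Cacna1g. The part of the thalamic markers in the Cacna1g value was not tested. The choroid plexus sum ran from 24.1 to 298 CPM in acute saline and from 73.9 to 820 CPM in acute ethanol libraries, with Ttr, a transthyretin gene of the choroid plexus, most abundant in 5 of the 6.

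Auxiliary subunits and partners of the channels were counted from lists of 45 genes, of which 43 were tested in the DS acute comparison. Of these, 5 rose and 5 fell, 10 of 43 against 5.15% of all genes tested. Among beta subunits, which bring the pore to the membrane, Cacnb2 rose (0.39 on the log2 scale, edgeR FDR = 0.057) and Cacnb3 fell (-0.25, edgeR FDR = 0.0753). Among alpha2delta subunits, which set channel number at the surface, Cacna2d3 rose (0.32, edgeR FDR = 0.0527) and the other 3 did not pass. Of the gamma and TARP list Cacng4 rose (0.24) and Cacng7 fell (-0.25), both best known as partners of AMPA receptors.

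Of 12 channel partners and inhibitors, Rims1, which anchors channels at the active zone, fell by 0.56 on the log2 scale (edgeR FDR = 0.00368), and Stac2, which slows L-type inactivation, fell by 0.96 (edgeR FDR = 0.00811). Rem2, a small GTPase that inhibits high-voltage-activated channels, rose (0.37, edgeR FDR = 0.0555). Of 15 calcium sensors and effectors, Camk4 rose (0.30) and Camk2g fell (-0.48). Cacna1f was listed at 0 in all 3 acute saline and all 3 acute ethanol libraries of the DS, and Cacna1s did not pass.

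In the chronic DS groups no member passed in edgeR, where 3 of 8 had an unadjusted p below 0.05 against 7.53% of genes tested. Cacna1g had 34.9 and 12.8 CPM in chronic saline and 23.0, 17.5, 37.0 and 14.6 CPM in chronic ethanol. The groups overlapped fully, and the 95% interval of the log2 fold change, from -1.04 to 0.92, includes a change as large as the acute one. The test of the difference between paradigms for Cacna1g gave 0.78 ± 0.51 (edgeR FDR = 0.973, 95% interval -0.31 to 1.86). Cacna1a was lower without overlap (92.7 and 108 CPM against 79.4, 83.0, 86.3 and 88.8 CPM; -0.26 ± 0.10, edgeR FDR = 0.582), and Cacna1i was higher (85.6 and 105 CPM against 111, 158, 109 and 135 CPM; 0.41 ± 0.16, edgeR FDR = 0.605). Cacna1d was also lower without overlap (51.5 and 47.8 CPM against 37.4, 43.0, 46.2 and 41.8 CPM; -0.25 ± 0.11, edgeR FDR = 0.657). With 2 libraries against 4, 9.37% of genes tested were higher and 8.03% lower in this way. Pallial excitatory neuron markers summed to 632 and 428 CPM in these chronic saline libraries and to 54.7, 181, 83.0 and 41.4 CPM in chronic ethanol, and DESeq2 called 3 of the 9 lower (edgeR 0). Thalamic neuron markers summed to 185 and 168 CPM in chronic ethanol replicates 1 and 5, against 73.3 to 78.8 CPM in the other 4 libraries. Choroid plexus markers ran from 23.1 CPM in chronic ethanol replicate 6 to 7124 CPM in chronic saline replicate 6. GABAergic interneuron markers summed to 910 and 911 CPM in chronic saline and to 1170, 1267, 1173 and 1305 CPM in chronic ethanol, without overlap, and DESeq2 called 2 of 7 higher (edgeR 0). Oligodendrocyte markers were lower without overlap (9290 and 9523 against 8770, 6843, 8755 and 6299 CPM). Endothelial markers (94.4 and 108.6 against 125.9, 133.5, 115.6 and 128.8 CPM) were higher without overlap. So, narrowly, were microglia markers (289.2 and 320.38 against 327.8, 325.3, 320.65 and 355.6 CPM). The part of these markers in the alpha1 values was not tested.

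Over the whole design, Cacna1a, whose channels carry most of the calcium entry for release at many central synapses, was the member most often below an unadjusted p of 0.05. Its log2 fold change with ethanol was below 0 in 8 of 10 comparisons, each with such a p in edgeR, and none passed FDR 0.1 in edgeR. Of 17992 genes tested in all 10 comparisons, 1 (0.00556%), Cacna1a itself, reached this. With the exon-length trend removed, it had such a p in 6 of the 8, and not in CTX chronic (-0.17) or VS chronic (-0.22). The 10 comparisons are not independent, since the regions came from the same 16 mice, and the gene was singled out after its values were seen. The values were -0.19 (acute) and -0.32 (chronic) in CTX, -0.18 and -0.69 in vHPC, -0.21 and -0.26 in DS, and -0.30 and -0.25 in VS. In dHPC they were 0.03 and 0.06. Cacna1h was above 0 in 8 of 10 comparisons, as were 11.7% of these genes in 8 or more, and an unadjusted p below 0.05 went with 2 of them. Cacna1i was below 0 in 8 of 10, as were 9.64% of these genes in 8 or more, and its 4 unadjusted p-values below 0.05 were for a rise in 2 comparisons and for a fall in 2.

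**Figure D3:**
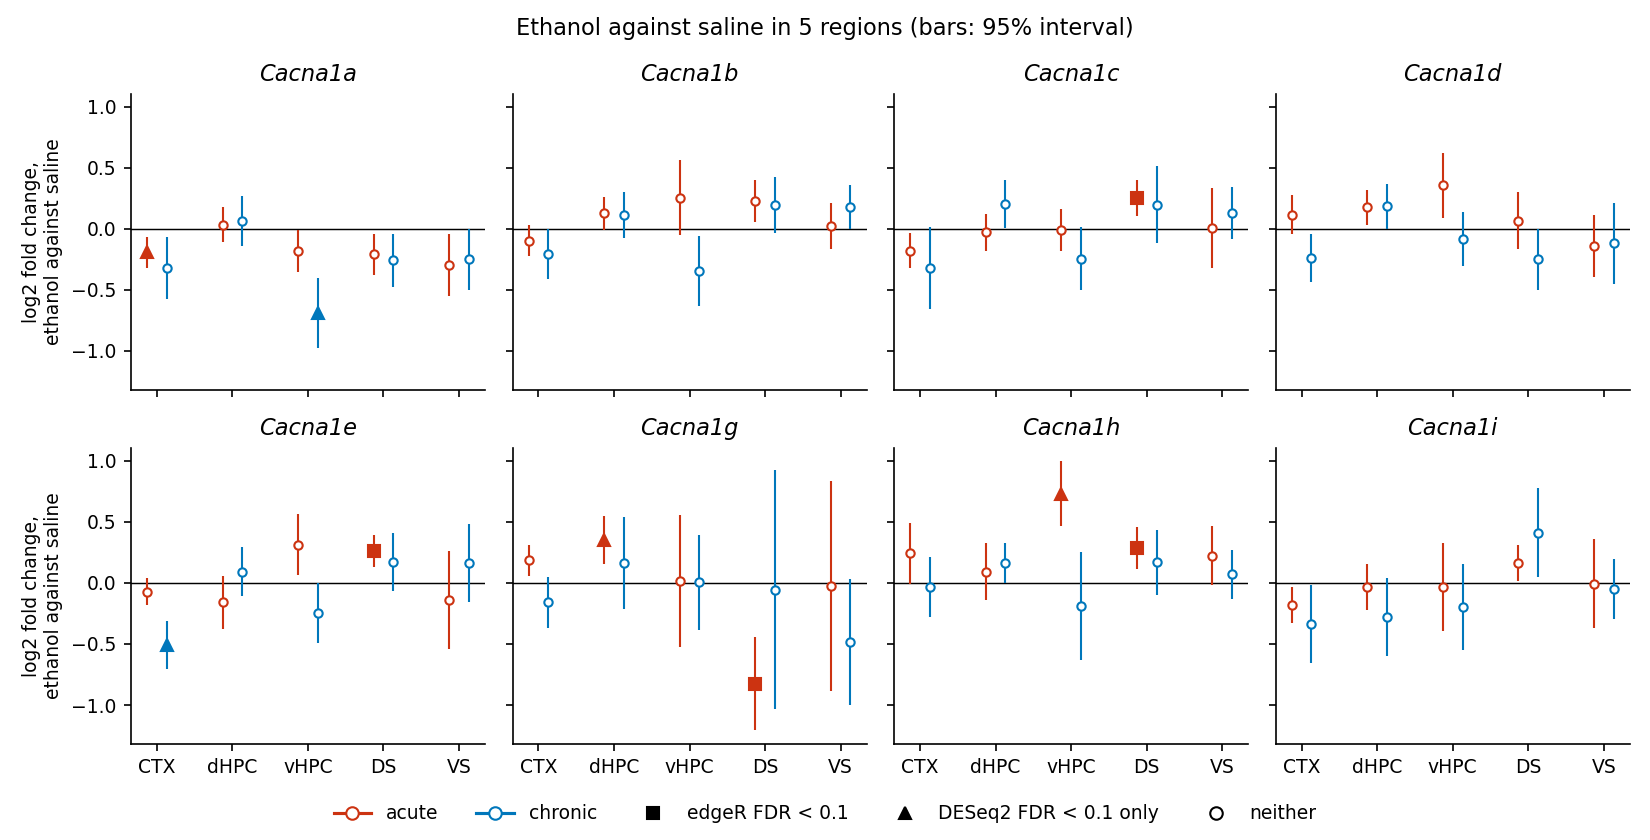
Log2 fold change with ethanol (edgeR, bars of the 95% interval) of each alpha1 gene in the acute and chronic comparison of each region. Red marks are acute and blue marks chronic comparisons, squares mark FDR below 0.1 in edgeR (4 genes in DS acute), triangles FDR below 0.1 in DESeq2 alone (5 values), and Cacna1a lies below 0 everywhere but in dHPC.

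In the VS, Cacna1a stood at 86.1, 103 and 100 CPM in acute saline and at 84.7, 85.2 and 69.6 CPM in acute ethanol. In the chronic groups it stood at 111, 92.0 and 96.2 CPM with saline and at 73.2, 89.3 and 90.6 CPM with ethanol. All ethanol libraries lay below all saline libraries of their paradigm. In VS acute Cacna1h was higher without overlap (73.8, 75.6 and 76.2 CPM against 88.5, 100.2 and 78.6 CPM), and in VS chronic Cacna1b was (109, 116 and 107 CPM against 131, 128 and 121 CPM). In VS acute 7.34% of genes tested were higher and 5.41% lower in this way, and in VS chronic 9.23% and 6.85%. No member passed in VS in edgeR, acute or chronic, and 1 of 8 had an unadjusted p below 0.05 in each, against 7.32% and 9.95% of genes tested. The pallial excitatory neuron markers summed to a mean of 594 CPM in VS acute saline and 90.7 CPM in acute ethanol, and in the chronic groups to 739, 91.9 and 443 CPM with saline and 43.9, 101 and 44.0 CPM with ethanol, which overlap. General neuron markers summed to 2656, 3202 and 3204 CPM in acute saline and to 2535, 2450 and 2381 CPM in acute ethanol, without overlap. Choroid plexus markers summed to 2875 CPM in chronic saline replicate 6 and to between 24.4 and 41.0 CPM in the other 5 chronic libraries. Astrocyte markers were higher without overlap in the acute groups (1126, 1198 and 1180 CPM with saline, 1227, 1270 and 1420 CPM with ethanol). In the chronic groups dentate granule neuron markers were lower without overlap (36.2, 41.9 and 34.9 against 22.1, 20.1 and 17.0 CPM). Endothelial markers were higher there without overlap (107, 110 and 104 against 117, 111 and 118 CPM). Whether these markers bear on the alpha1 values was not tested.

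In the vHPC, T-type Cacna1h and P/Q-type Cacna1a showed the largest differences. No member passed in edgeR in either paradigm, where 4 of 8 (acute) and 3 of 8 (chronic) had an unadjusted p below 0.05 against 11.9% and 9.51% of genes tested. DESeq2, run on the same filtered genes, called 1 of 8 in each. Of the genes to which it gave an adjusted p, it called 4.46% of 12963 (acute) and 1.17% of 18275 (chronic).

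Cacna1h had 82.8, 97.9 and 103 CPM in vHPC acute saline and 161, 136 and 178 CPM in acute ethanol. Every ethanol library was above every saline library, and the log2 fold change was 0.73 ± 0.12 (1.66-fold; edgeR FDR = 0.171, DESeq2 FDR = 3.9e-05). It was number 16 by p of the 19916 genes tested in edgeR, and DESeq2 called it in 6 of 6 fits that left out a library. Cacna1e (337, 421 and 440 against 518, 451 and 529 CPM) and Cacna1d (49.8, 45.2 and 53.2 against 66.3, 53.5 and 71.5 CPM) were also higher without overlap, at 0.31 ± 0.11 and 0.36 ± 0.12, and passed in neither tool. Cacna1a was lower without overlap (-0.18 ± 0.08). In sum, 3 members were higher and 1 lower without overlap, where 17.5% of genes tested were separated in either direction.

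After chronic exposure Cacna1a had 217, 212 and 245 CPM in vHPC saline and 168, 117 and 132 CPM in ethanol. The ethanol libraries lay far below the saline libraries, with a log2 fold change of -0.69 ± 0.13 (0.620 of the saline level; edgeR FDR = 0.182, DESeq2 FDR = 0.000896). DESeq2 called it in 6 of 6 fits that left out a library. Cacna1c (-0.24 ± 0.12) and Cacna1e (-0.25 ± 0.11) were lower without overlap too, so that 3 members were, against 7.16% of genes tested.

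Cell type markers also differed between the vHPC libraries. The dentate granule neuron markers summed to 247, 224 and 88.3 CPM in acute saline and to 405, 318 and 509 CPM in acute ethanol, with Prox1, a transcription factor of granule cells, most abundant in all 6 libraries. The thalamic neuron markers summed to 913, 239 and 178 CPM in acute saline and to 94.4, 237 and 77.7 CPM in acute ethanol. None of either list passed in edgeR, and DESeq2 called 2 of 6 dentate markers higher and 1 of 6 thalamic markers lower. In the chronic groups 4 of 8 choroid plexus markers rose in edgeR, from sums of 26.1, 208 and 119 CPM to 902, 3179 and 1370 CPM. Pallial excitatory neuron markers were lower in the libraries in which Cacna1a was lower, at sums of 2074, 2169 and 2537 CPM in chronic saline and 1985, 1421 and 1590 CPM in chronic ethanol, and none of the 9 was called in either tool. General neuron markers summed to 4167, 4229 and 4787 CPM in acute saline and to 3757, 3739 and 3855 CPM in acute ethanol, without overlap, and DESeq2 called 2 of 5 lower (edgeR 0). In the chronic groups they summed to 3903, 4393 and 4868 CPM with saline and to 4379, 3300 and 3168 CPM with ethanol, lowest in the 2 libraries with the lowest Cacna1a. Endothelial markers ran from 98.9 to 120.2 CPM in chronic saline and from 88.3 to 93.5 CPM in chronic ethanol. Oligodendrocyte markers ran from 2461 to 9189 CPM over the 12 libraries, with 8665, 7216 and 2461 CPM in acute saline. Striatal projection neuron markers stood apart in chronic ethanol replicate 5 (1509 CPM) and acute ethanol replicate 4 (1223 CPM), against 178 to 447 CPM in the other 10 libraries. The part of these markers in the alpha1 values was not tested.

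In the vHPC the interaction of paradigm and treatment was below 0 for 8 of 8 members, that is lower with chronic than with acute ethanol relative to saline, where 48.7% of genes tested were below 0. The median was -0.47 on the log2 scale, against 0.01 over all genes. In CTX it was below 0 for 8 of 8 members too, with a median of -0.23, where 52.8% of genes tested were below 0. With each library's trend with exon length removed, 5 of 8 were below 0 in CTX, with a median of -0.10, and 7 of 8 in vHPC, with a median of -0.44. The members were not independent of each other, since they were measured in the same 12 libraries of a region. In vHPC none passed in edgeR, where 5 of 8 had an unadjusted p below 0.05 against 11.5% of genes tested. DESeq2 called 3 (4.62% of genes tested): Cacna1h (-0.93 ± 0.26 in edgeR; DESeq2 FDR = 0.0446), Cacna1e (-0.56 ± 0.16; DESeq2 FDR = 0.0574) and Cacna1a (-0.51 ± 0.16; DESeq2 FDR = 0.0871). Of 12 DESeq2 fits that left out a library, Cacna1h and Cacna1e stayed called in 8 each and Cacna1a in 4, and 1 gave no adjusted p for Cacna1h. All 3 calls were lost without acute saline replicate 2, acute ethanol replicate 5 or chronic saline replicate 2.

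These interactions rested on all 4 groups, and the saline groups differed as well. In chronic saline Cacna1h had 182, 136 and 135 CPM, above all acute saline libraries, and in chronic ethanol 102, 118 and 176 CPM. Cacna1e had 562, 503 and 549 CPM in chronic saline and 479, 387 and 491 CPM in chronic ethanol. For both genes the acute saline libraries were the lowest group on average, and those of chronic saline were close to those of acute ethanol. After 10 rather than 1 saline injections, 5 members were higher without overlap, where 9.03% of genes tested were. The dentate granule neuron markers were also higher without overlap, at sums of 475, 378 and 275 CPM in chronic saline against the acute saline sums above, with 1 of 6 called in DESeq2 and 0 in edgeR, and their part was not tested. GABAergic interneuron markers were lower without overlap, at 500, 543 and 604 CPM in chronic saline against 728, 629 and 641 CPM in acute saline. Their part was not tested either. Of the members, DESeq2 called Cacna1h (0.67 ± 0.14 in edgeR; DESeq2 FDR = 0.0034), Cacna1d (0.47 ± 0.10; DESeq2 FDR = 0.014) and Cacna1e (0.42 ± 0.11; DESeq2 FDR = 0.0315), 3 of 8 against 2.43% of genes tested. In edgeR none passed (0% of genes tested did), and 3 of 8 had an unadjusted p below 0.05, against 11%.

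**Figure D4:**
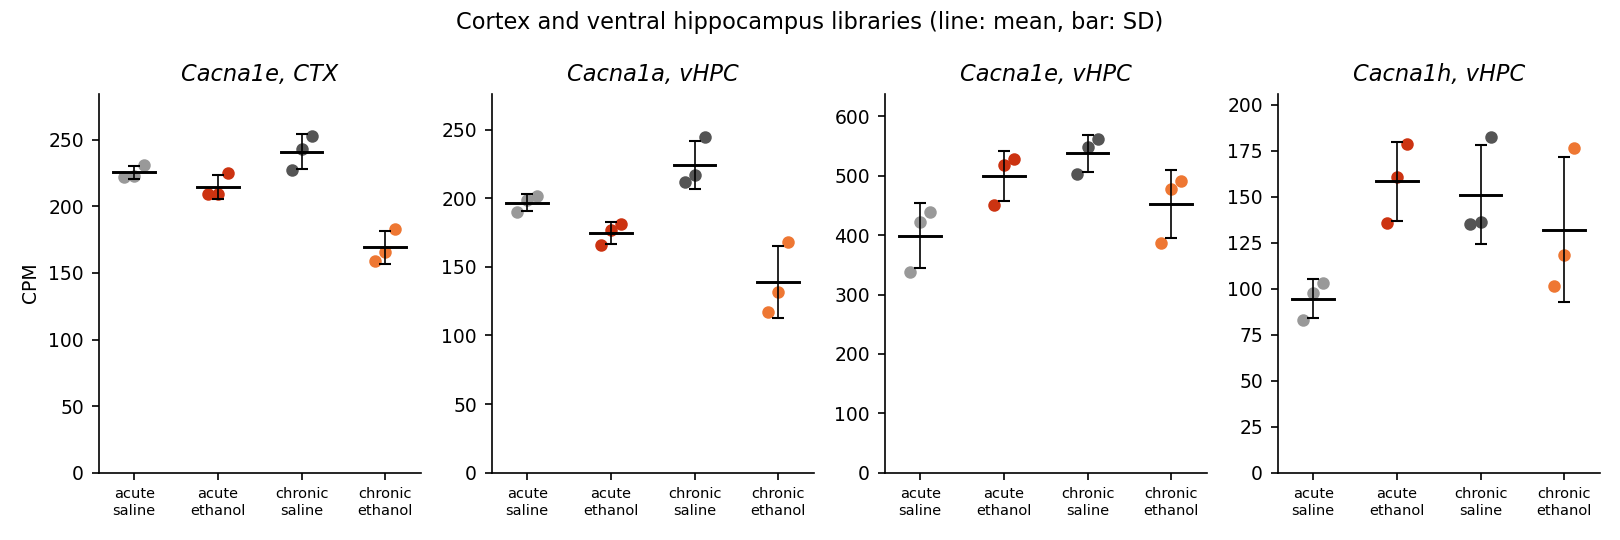
Levels in CPM from 0 of Cacna1e in CTX and of Cacna1a, Cacna1e and Cacna1h in vHPC, with a point for each library of the 4 groups, a line for the group mean and a bar of 1 SD either way. Cacna1e is lowest in the chronic ethanol group of CTX, and in vHPC Cacna1h is lowest in acute saline and Cacna1a in chronic ethanol.

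In the CTX, the R-type gene Cacna1e was lower after chronic ethanol exposure. It stood at 253, 243 and 227 CPM in chronic saline and at 183, 159 and 166 CPM in chronic ethanol, and at 222, 223 and 231 against 209, 225 and 209 CPM in the acute groups. The chronic groups were far apart and the acute groups overlapped. The chronic log2 fold change was -0.51 ± 0.09 (0.702 of the saline level; edgeR FDR = 0.443, DESeq2 FDR = 0.00284). It was number 5 by p of 25644 genes in edgeR, in a comparison in which no gene of the whole table passed, and 5 of 8 members had an unadjusted p below 0.05 against 10.4% of genes tested. DESeq2 called 1 of 8 members, against 0.835% of genes tested. The DESeq2 call was lost without chronic saline replicate 3 (DESeq2 FDR = 0.172). Cacna1e has the longest exons of the 8 genes, and with each library's trend with exon length removed its log2 fold change was -0.23 ± 0.08 (edgeR FDR = 0.535).

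All 8 members were below 0 in chronic CTX (50.9% of genes tested were), with a median of -0.28, and Cacna1a, Cacna1b, Cacna1d and Cacna1e were lower without overlap, 4 of 8 against 9.23% of genes tested. With the exon-length trend removed the median was -0.07 and 7 of 8 members were below 0. Chronic ethanol replicate 5 had the lowest value of its group for Cacna1a (156 CPM, against 211 and 198 CPM), Cacna1b, Cacna1c, Cacna1e, Cacna1g and Cacna1i. Oligodendrocyte markers summed to 1193, 2631 and 2214 CPM in chronic saline and to 2603, 3143 and 2060 CPM in chronic ethanol, none of the 7 was called in either tool, and their part was not tested. The interaction for Cacna1e in CTX was -0.45 ± 0.10 (edgeR FDR = 0.600, DESeq2 FDR = 0.0906), the only member DESeq2 called, against 0.084% of genes tested, and the call stayed in 4 of 12 DESeq2 fits that left out a library. With the exon-length trend removed it was -0.17 (edgeR FDR = 0.694).

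After acute exposure in CTX, Cacna1a (237, 257 and 231 against 226, 211 and 197 CPM), Cacna1b (162, 187 and 163 against 160, 159 and 160 CPM) and Cacna1c (85.2, 89.7 and 89.2 against 77.5, 84.4 and 71.3 CPM) were lower without overlap. Cacna1g was higher (110, 123 and 109 against 125, 136 and 128 CPM). No member passed in edgeR (1.99% of genes tested did), and 4 of 8 had an unadjusted p below 0.05, against 12.5%. The 4 genes above were those without overlap, where 17.4% of genes tested were. DESeq2 called Cacna1a (-0.19 ± 0.06 in edgeR; edgeR FDR = 0.168, DESeq2 FDR = 0.0905), 1 of 8 against 5.21% of genes tested, and kept the call in 2 of 6 fits that left out a library. Oligodendrocyte markers, led by Mbp, the myelin basic protein gene, rose for 5 of 7 genes in this comparison, from sums of 2227, 1983 and 2137 CPM to 3049, 3044 and 2314 CPM. Other marker lists were lower without overlap in this comparison. Striatal projection neuron markers went from 352, 328 and 395 to 304, 285 and 313 CPM. Microglia markers went from 268, 259 and 252 to 245, 243 and 248 CPM, and endothelial markers from 133, 139 and 138 to 130, 119 and 119 CPM. For dentate granule neuron markers the sums were 66.2, 73.3 and 65.4 against 59.7, 64.2 and 58.7 CPM. The part of all these markers in the alpha1 values was not tested.

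In the dHPC the T-type gene Cacna1g was the only member near a threshold. It had 50.9, 40.3 and 43.3 CPM in acute saline and 59.9, 50.6, 58.4 and 59.3 CPM in acute ethanol. The lowest ethanol library lay just below the highest saline library, and the log2 fold change of 0.35 ± 0.09 gave an FDR of 0.316 in edgeR and 0.0388 in DESeq2. DESeq2 called 1 of 8 members there, against 1.6% of genes tested, and the call was lost in 3 of 7 fits that left out a library (acute saline replicates 4 and 5, acute ethanol replicate 5). Markers of striatal projection neurons summed to 953, 716 and 592 CPM in these saline libraries and to 435, 330, 629 and 317 CPM in these ethanol libraries, with none called in either tool, and their part in the value was not tested. Set beside the DS, where the same gene fell after the same exposure, the signs were opposite, and the difference between these regions was not tested. In edgeR no member passed in dHPC in either paradigm, and 2 of 8 had an unadjusted p below 0.05 in each, against 7.88% (acute) and 8.23% (chronic) of genes tested. In chronic dHPC groups Cacna1c (104, 96.7 and 82.0 against 110, 111 and 107 CPM) and Cacna1h (139, 125 and 142 against 161, 142 and 154 CPM) were higher without overlap, at 0.20 ± 0.09 and 0.16 ± 0.07, 2 of 8 members where 7.82% of genes tested were.

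At the isoform level, isoforms of the called genes moved in the same direction as their gene. Isoform counts share reads wherever exons are shared, so isoforms of a gene are not independent, and the most abundant isoform of each gene (Cacna1a-201, Cacna1b-203, Cacna1c-207, Cacna1d-202, Cacna1e-202, Cacna1g-207, Cacna1h-210 and Cacna1i-202) had a count of at least 91.3% of its gene's count. In DS acute ethanol, edgeR called 15 of 111 isoforms tested, against 3.59% of all isoforms. They were 12 isoforms of Cacna1g, lower by between -0.85 and -1.03 on the log2 scale, and Cacna1e-202, Cacna1e-206 and Cacna1c-216, which were higher. In CTX acute it called 1 of 112 (1.24% of isoforms tested): Cacna1a-212, at 29.4, 31.2 and 29.8 CPM in saline and 27.3, 25.3 and 25.1 CPM in ethanol (-0.22 ± 0.06, edgeR FDR = 0.0985). No member isoform passed in edgeR in the other 8 comparisons or the 5 interactions. Of all isoforms tested, 0.0015% passed in dHPC acute, 0.0402% in vHPC chronic, 0.233% in VS acute, 0.00827% in VS chronic and 0% in the other 4 comparisons. For the 5 interactions this share is not given.

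Coding bases that differ between the called isoforms are shown to make clear what sets these transcripts apart. Whether each stretch is a whole exon or part of one was not checked. The word "exon" in the labels below stands for such a stretch. Cacna1e-202 and Cacna1e-206 are 14921 and 6765 bases long, with 98.7% and 39.5% of the gene's count, and they have coding lengths of 6819 and 6762 bases and start in different exons. The first coding exon of Cacna1e-206, read from GRCm39 on the minus strand at chr1:154739625-154739813, is printed 5′ to 3′ from the start codon, which is in capitals. The coding stretch of Cacna1e-206 at chr1:154280631-154280759, absent from Cacna1e-202, is 129 bases long, a multiple of 3.
Cacna1e-206, first coding exon: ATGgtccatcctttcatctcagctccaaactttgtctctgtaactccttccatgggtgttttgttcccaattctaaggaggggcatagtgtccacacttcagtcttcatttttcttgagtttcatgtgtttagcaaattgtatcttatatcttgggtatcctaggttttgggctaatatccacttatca
Cacna1e-206, exon absent from Cacna1e-202: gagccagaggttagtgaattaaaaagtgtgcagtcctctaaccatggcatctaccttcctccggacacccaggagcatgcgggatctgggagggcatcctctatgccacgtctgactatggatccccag

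Both Cacna1e isoforms were higher in DS acute ethanol. Cacna1e-202 had 94.5, 96.6 and 103 CPM of isoform counts in saline and 110, 116 and 124 CPM in ethanol (0.24 ± 0.07, edgeR FDR = 0.0585). Cacna1e-206 had 34.0, 37.6 and 32.6 CPM in saline and 40.7, 44.0 and 41.6 CPM in ethanol (0.27 ± 0.08, edgeR FDR = 0.0728). The ratio of the Cacna1e-206 count to the Cacna1e-202 count, which overlap in part, was 35.5 ± 3.69% in acute saline and 36.1 ± 2.26% in acute ethanol (SD, n = 3 each), a difference within the spread. In vHPC acute it ran from 39.3% to 41.9% in saline and from 42.3% to 45.4% in ethanol, and in VS chronic from 35.7% to 38.0% in saline and from 39.0% to 40.2% in ethanol, without overlap in either. It went the other way in vHPC chronic (45.2 ± 2.71% in saline, 41.5 ± 1.06% in ethanol) and CTX chronic (40.7 ± 1.45% and 37.9 ± 2.25%), where the groups overlapped. The ratio was looked at in all 10 ethanol comparisons, and the groups overlapped in all but vHPC acute and VS chronic. How often other isoform ratios separate in this way is not given. These differences were not tested, and no isoform shift is read from them. Over all libraries of a region this ratio was 34.8 ± 2.26% in DS, 38.6 ± 2.06% in VS and 43.0 ± 2.42% in vHPC. In the other kit, which is not compared with these, it was 39.7 ± 1.85% in CTX and 41.1 ± 1.63% in dHPC. The L-type isoform Cacna1c-216 had 15.8, 16.0 and 15.7 CPM in saline and 18.4, 19.4 and 19.4 CPM in ethanol (0.26 ± 0.08, edgeR FDR = 0.0976).

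Cacna1g-207, the most abundant isoform of Cacna1g, has a coding length of 7143 bases against 6885 in Cacna1g-202. It holds 2 stretches of coding bases that Cacna1g-202 lacks, at chr11:94303916-94304050 and chr11:94305757-94305900. It lacks a short coding stretch of 21 bases at chr11:94316590-94316610 (GRCm39, minus strand, 5′ to 3′). Whether these stretches are whole exons or parts of exons was not checked, and "exon" in the labels below stands for such a stretch. They are shown as the coding bases in which these isoforms differ.
Cacna1g-207, exon of 135 bases: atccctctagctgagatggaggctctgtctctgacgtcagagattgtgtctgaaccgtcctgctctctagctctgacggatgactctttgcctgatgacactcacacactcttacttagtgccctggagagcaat
Cacna1g-207, exon of 144 bases: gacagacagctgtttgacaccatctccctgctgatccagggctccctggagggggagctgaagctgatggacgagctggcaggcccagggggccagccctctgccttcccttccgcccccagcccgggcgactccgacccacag
Cacna1g-202, exon of 21 bases: gtaaggagaagcagatggccg

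In DS, Cacna1g-207 had 12.1, 6.53 and 8.49 CPM of isoform counts in acute saline and 4.72, 4.76 and 5.30 CPM in acute ethanol (-0.86 ± 0.16, edgeR FDR = 0.00576). Cacna1g-202 fell by almost the same amount (-0.87 ± 0.16, edgeR FDR = 0.00575). Cacna1g-216, an isoform annotated without a coding sequence, had 6.83, 3.52 and 5.20 CPM in saline and 2.42, 2.57 and 2.56 CPM in ethanol, and its fall was the largest of the 12 (-1.03 ± 0.19, edgeR FDR = 0.0038). All ethanol libraries of these isoforms lay below all saline libraries.

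**Figure D5:**
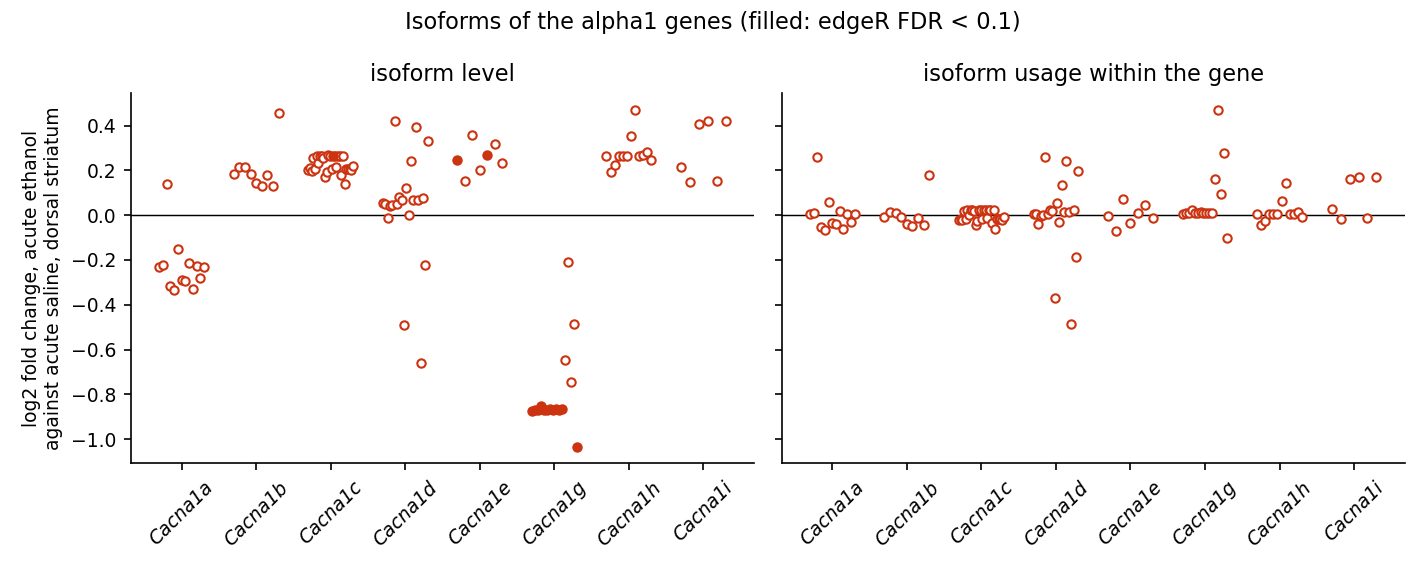
Log2 fold change with acute ethanol in DS (edgeR) of the 111 alpha1 isoforms tested, by gene, with a point for each isoform, filled where its FDR is below 0.1. The left panel shows each isoform's own change, where 12 isoforms of Cacna1g lie between -0.85 and -1.03, and the right panel its change against all isoforms of its gene, where no point is filled and changes near 0 are in large part fixed by shared reads.

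The counts leave little room to see an isoform move apart from its gene, since 11 of the 12 Cacna1g isoforms named each hold between 93.5% and 97.1% of the gene's count. In a test of isoform usage (edgeR's diffSpliceDGE), which sets each isoform against all isoforms of its gene, 0 member isoforms passed FDR 0.1 in any of the 15 comparisons and interactions. At an unadjusted p below 0.05 there were 2 of 111 in DS acute and 1 of 112 each in CTX acute, DS chronic, the DS interaction and VS acute. The share of all isoforms with such a p is not given, so nothing is read from these counts. Among all isoforms, 0.00413% passed FDR 0.1 in CTX acute and 0% in DS acute. DESeq2 called isoforms mostly of the genes that it called at the gene level: 6 of Cacna1e in chronic CTX (0.307% of isoforms tested), 12 of Cacna1g in dHPC acute (0.763%), 10 of Cacna1h among 11 in vHPC acute (3.21%) and 7 of Cacna1a in vHPC chronic (0.738%). It called 22 member isoforms in DS acute (4.03% of isoforms tested), 6 in CTX acute (3.55%), 3 in the CTX interaction (0.299%), 15 in the vHPC interaction (3.67%) and 0 in the other 7 comparisons and interactions.

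Beyond the DS, auxiliary subunits and partners rarely passed in edgeR. In CTX acute Stac2 rose (0.30, edgeR FDR = 0.0351) and Cacng3 fell (-0.29, edgeR FDR = 0.037), 2 of 44 genes tested against 1.99% of all genes. In the other 8 ethanol comparisons and the 5 interactions none of the listed genes passed. DESeq2 called 8 higher and 5 lower in DS acute (8.14% of all genes were called) and 2 higher and 1 lower in vHPC acute (4.46%). It called 1 higher and 2 lower in CTX acute (5.21%) and 1 higher in dHPC acute (1.6%). Calls with no share of all genes given were 1 higher in DS chronic, 2 lower in VS acute and 1 lower in VS chronic. DESeq2 called 5 lower in vHPC chronic (1.17% of all genes were called): Cacng8 (-0.53), Rimbp2, which ties channels to the release machinery, (-0.39), Stac2 (-0.60), Camk2a (-0.55) and Crtc1 (-0.35). Between the vHPC saline groups, which enter the interaction, it called 7 higher and 2 lower (2.43% of all genes). In the vHPC interaction (4.62% of all genes) it called 7 lower, among them Camk2a (-0.89) and Camk2b (-0.62), the main subunits of a calcium-dependent kinase, and 1 higher, Camk2d (1.09).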

How the data were processed

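Per the labels and the study's methods, the authors used Cutadapt 5.0 for trimming, STAR 2.7.10a for alignment (GRCm39) and featureCounts 2.0.6 for counts of fragments over exons, by Ensembl gene and by isoform. All libraries were counted as reverse-stranded, and multimapping or overlapping fragments were kept for every feature they touch, which for isoforms counts shared exons many times. The deposited values are raw counts without normalization or filter, on 56415 genes and 218795 isoforms. No p-values or fold changes of the authors were used.

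Levels are CPM on TMM-scaled library sizes (edgeR 4.0.16, limma 3.58.1, R 4.3.3), divided by exon length where genes are compared. Tests were edgeR's quasi-likelihood F test after a low-count filter (5 or more counts in 2 or more libraries of 1 group), fitted within 1 region to the groups compared, with Benjamini-Hochberg adjustment over all features tested and FDR 0.1. Isoform usage was tested with diffSpliceDGE. Standard errors came from the F statistic, and 95% intervals from the t distribution on its degrees of freedom. Replicates are separate mice, and counting error is only part of their spread. Alternatives were DESeq2 1.42.0 (Wald test, the study's tool), its size factors, 2 other low-count filters, an exon-length offset, all 4 groups in 1 fit, a replicate or mouse block, and fits without each library. DESeq2 with libraries left out, and the truncated DS library kept on its complete chromosomes, were added after seeing the data. The scripts' tests were checked on simulated data, and tables were read with the R package data.table (1.17.8), pandas 2.3.3, numpy 2.4.6 and scipy 1.17.1 under Python 3.11.15, with plots by matplotlib 3.10.9.

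All 8 members were named in every test, and other genes only from 6 channel lists and 11 marker lists where past FDR 0.1 or by list. Isoforms named were the most abundant of each gene and those past FDR 0.1 with a mean of at least 10 counts. The members and lists were chosen with earlier results of these data known. For likeness, genes with a mean of at least 1 CPM and a pseudocount of 0.1 CPM were used. Libraries of 1 mouse from several regions pair in the region comparisons, per the labels: over 19 such pairs the correlation of deviations from group means ran from -0.060 to 0.283, and blocked values are given where they change a call. Exon sequences and exon overlaps between genes were read from the GRCm39 assembly with the GENCODE vM39 annotation, which is not the release of the count tables. Of the closest genes and the isoform exons, 1 of each is not reported here.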

Additional observations from a re-analysis of the deposited data

Results flagged for a closer look

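In groups of 4 libraries, 16 sets of values of a gene in a group were searched for a single library far from the others, and chance alone would give about 1 such set in 20. Cacna1c in dHPC acute ethanol had its highest library at 112 CPM, and the other 3 lay between 95.0 and 96.5 CPM. Cacna1g in the same group had its lowest library at 50.6 CPM, and the other 3 lay between 58.4 and 59.9 CPM.

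The effect of ethanol differed between the paradigms, by the interaction test in DESeq2 but not in edgeR, for Cacna1e in CTX (-0.45 on the log2 scale in edgeR) and for Cacna1a (-0.51), Cacna1e (-0.56) and Cacna1h (-0.93) in vHPC. With the exon-length trend removed, the CTX value was -0.17 (edgeR FDR = 0.694). In both regions these DESeq2 calls were lost in some fits that left out a library. Cacna1e in vHPC was also higher with acute ethanol and lower with chronic ethanol with no overlap between the groups of either paradigm.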

How the results depend on the processing

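No call of a member gene, isoform or region difference changed direction under any alternative. With edgeR as reported, 0 members were called outside DS acute. DESeq2 called 1 member in each of CTX acute, CTX chronic, the CTX interaction, dHPC acute, vHPC acute and vHPC chronic, 3 in the vHPC interaction and 3 between the vHPC saline groups. The edgeR counts of members under the alternatives below stand without the share of all genes called in the same fit. They are not read as a result about the members. Without a low-count filter edgeR called 4 in CTX acute, 1 in each of CTX chronic, the CTX interaction, dHPC acute, vHPC acute, vHPC chronic and the DS interaction, and 4 in the vHPC interaction. With all 4 groups in 1 fit it called 1 in CTX chronic and 0 in DS acute (4 as reported), and with the exon-length trend removed 2 in DS acute. The causes were not tested. For isoforms, DESeq2 called 6, 6 and 3 in CTX (acute, chronic, interaction; 1, 0 and 0 in edgeR), 12 in dHPC acute and 11, 7 and 15 in vHPC (0 in edgeR), and 22 in DS acute (15 in edgeR). With at least 10 counts in every library, a filter under which fewer isoforms are tested, edgeR called 34 in DS acute (15 as reported). The number of member isoforms tested and the share of all isoforms called in that fit are not given.

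With each library left out in turn, the number of members edgeR called ran from 1 to 4 in DS acute (4 as reported), 0 to 3 in CTX acute, 0 to 1 in vHPC acute and vHPC chronic, and from 0 to 1 in the DS and 0 to 3 in the vHPC saline comparison. The number DESeq2 called ran from 2 to 5 in DS acute, 0 to 4 in CTX acute, 0 to 1 in dHPC acute, 1 to 2 in vHPC acute and vHPC chronic, 0 to 2 in CTX chronic, 0 to 1 in VS chronic, and 0 to 3, 0 to 1 and 0 to 4 in the CTX, DS and vHPC interactions. Isoforms called in edgeR ran from 0 to 17 in CTX acute (1 as reported), 12 to 19 in DS acute (15), 0 to 9 in vHPC acute, 0 to 12 in vHPC chronic and 0 to 5 in the vHPC interaction. For regions the ranges were 7 to 8 for CTX against dHPC, 1 to 3 for DS against VS, 6 to 7 for vHPC against DS and 6 to 7 for vHPC against VS. In the other comparisons the count stayed at 0.

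The replicate numbers shared between groups belong to different mice per the labels, so they do not pair the samples. Over 14 such pairs the correlation of deviations ran from -0.263 to 0.282 (median 0.051), and 4 were over 0.1. Over the 19 pairs from the same mouse the median was 0.039, and 6 were over 0.1. This correlation therefore cannot decide which samples pair. A fit with the replicate number as a block called 0 members in CTX acute, CTX chronic, dHPC acute and the 5 interactions, as without it, and no such fit could be had in the other comparisons, whose groups share fewer than 2 numbers. With the mouse as a block, 8 members were called for CTX against dHPC, 6 for vHPC against DS, 6 for vHPC against VS (7 without it) and 1 for DS against VS. Depth was lowest for Cacna1g, with as few as 138 counts in a DS library.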
